A study of Mus musculus with 4 samples.

Results

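Atrial-type cardiac muscle spots are the positions of a lung section whose captured RNA was rich in transcripts of atrial heart muscle. A spot was taken as a member when it held at least 500 unique molecular identifiers (UMIs, each tagging 1 captured RNA molecule) and when 7 genes of atrial muscle, Myl7, Tnni3, Nppa, Pln, Ryr2, Myl4 and Sln, made up at least 12000 of every 1000000 of its UMIs (counts per 1000000 UMIs are written CPM). This rule chose 370 of the 4933 deposited spots (7.50%), which are called cardiac spots here. The series holds 4 Visium sections of the upper pulmonary branches of C57BL/6J mice, 1 section per mouse, from a male and a female of the vaped (V) group and a male and a female of the non-vaped (NV) group. The V mice had been exposed from about 8 weeks of age to Peach Ice vapor from JUUL pens in whole-body chambers, 4 h a day and 5 days a week through 9 weeks, whereas the NV mice had not been vaped. No transgene, deletion or other agent is given for either group. A spot is a disc of about 50 µm on a 10 µm cryosection and can hold several cells of different types, so a spot rich in cardiac transcripts is a place and not a cell. Spots of 1 section are not replicates, and comparisons between V and NV were therefore made over sums per section.

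In the mouse, heart muscle does not end at the atria, since a sleeve of atrial-type cardiomyocytes continues along the pulmonary veins into the lung. These cells contract with the atria, carry an atrial set of myosin light chains, and store atrial natriuretic peptide, a hormone released on stretch that lowers blood volume. Like other cardiomyocytes they cycle calcium through the sarcoplasmic reticulum at every beat, with Ryr2 as the release channel, Atp2a2 as the pump and Pln and Sln as inhibitors of the pump, and they rely on mitochondria for energy.

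Cardiac spots were found in 3 of the 4 sections. The NV male section held 157 cardiac spots among 820 spots of at least 500 UMIs (19.1%, exact 95% binomial interval 16.5 to 22.01%), the NV female section 49 of 460 (10.7%, 7.99 to 13.8%) and the V female section 164 of 2042 (8.03%, 6.89 to 9.30%). The V male section had 0 of 1561 (exact 95% binomial interval 0 to 0.236%), and its highest spot reached 668 CPM, so this section gave no cardiac values. These intervals cover counting error only, and how much of each section was hilar tissue was not measured. Where 3 values are given in a row, the first is of the NV male, the next of the NV female and the last of the V female. Cardiac spots held 2023172, 1638990 and 5169996 UMIs, or 21.6%, 23.6% and 15.1% of all UMIs of those sections. Their median depth was 7496, 30909 and 32096 UMIs, with 2762, 6067 and 6300 genes per spot, against 10117, 9683 and 10411 UMIs in the other spots. Cardiac spots were thus shallower than other spots in the NV male and deeper in both females. Spot barcodes recurred between sections, 277 to 1167 for each pair, and were kept apart by section.

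The level of the 7 genes chose the spots and is given as a description. It ran from 12006 to 48755 CPM (median 25193) in the NV male, from 14895 to 57127 (median 34419) in its female counterpart and from 12196 to 52092 (median 22586) in the V female. The spots just below the threshold stood at 11790, 11540 and 11950 CPM, so the threshold fell in a gap of the NV female and not of the other 2 sections. Atrial transcripts were also present outside the cardiac spots, since the median of the other spots was 5211, 3779.9 and 2283 CPM, against 20.03 CPM over the whole V male section. Even the 25% of other spots poorest in these genes stood at 3763, 2453 and 1523 CPM, 188, 122 and 76.0 times the V male level. The 7 genes kept nearly the same proportions inside and outside the cardiac spots, with Myl7 making up 33.3% of their UMIs in cardiac and 30.0% in other spots of the NV male, 34.2% and 30.8% for the NV female and 32.3% and 32.0% for the V female. Where the transcripts of the other spots came from was not tested.

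**Figure D1:**
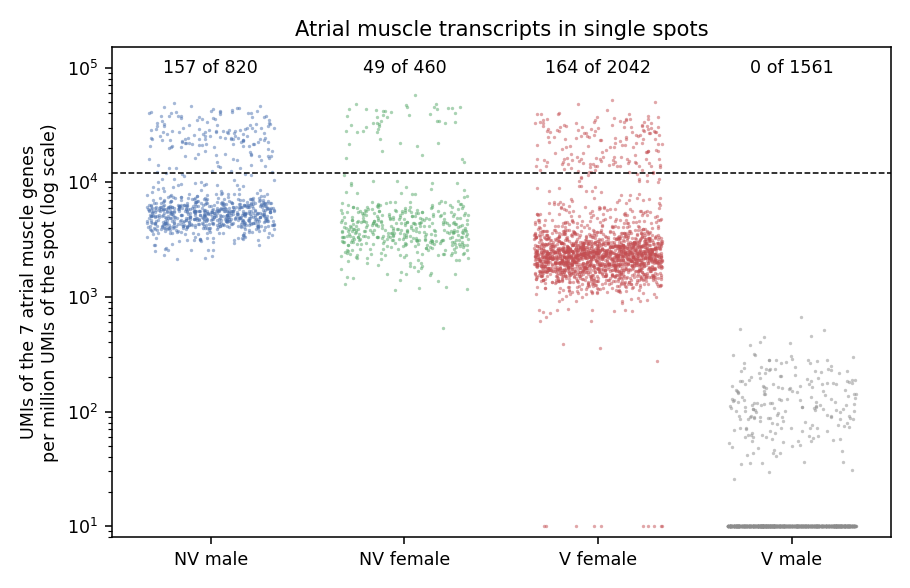
Summed level of the 7 atrial muscle genes in CPM of a spot (log axis, spots without any such UMI drawn at 10) for each spot of at least 500 UMIs in the 4 sections, with a dashed line at the threshold of 12000. The numbers above the points are the cardiac spots, 157 of 820, 49 of 460, 164 of 2042 and 0 of 1561. Other spots of the V male lie below 668 CPM, whereas the medians of other spots in the remaining sections lie between 2283 and 5211 CPM.

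Regulatory sequences just upstream of 3 of these genes are shown because the factors that switch on heart muscle genes bind short motifs of this kind. GATA factors bind AGATAA or TGATAA, serum response factor binds the CArG box, Mef2 factors bind the MEF2 box, and TATAAA is the core of the TATA box. The windows are RefSeq sequences of GRCm38.p6, from 250 bases before to 50 bases after the annotated start, 5′ to 3′ on the strand of the gene, and capitals mark each match to 1 of the 4 motifs. GATA, CArG and MEF2 motifs were searched on both strands and TATAAA on the gene strand only. Myl7, the atrial regulatory light chain of myosin, is at chr11:5898733-5899032 on the minus strand, with a CArG box 61 and a GATA motif 42 bases before the start. Nppa, which encodes atrial natriuretic peptide, is at chr4:148000472-148000771 on the plus strand, with a GATA motif 122 and TATAAA 9 bases before the start. Pln, phospholamban, is at chr10:53337436-53337735 on the plus strand, with GATA motifs 183 and 82 and TATAAA 219 bases before the start. In these 3 windows no match overlapped another.
Myl7: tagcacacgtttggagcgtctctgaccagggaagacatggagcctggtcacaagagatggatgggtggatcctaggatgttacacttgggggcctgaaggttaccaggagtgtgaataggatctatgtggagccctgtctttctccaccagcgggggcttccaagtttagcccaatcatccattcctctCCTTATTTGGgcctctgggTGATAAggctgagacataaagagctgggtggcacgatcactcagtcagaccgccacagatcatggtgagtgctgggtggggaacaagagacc
Nppa: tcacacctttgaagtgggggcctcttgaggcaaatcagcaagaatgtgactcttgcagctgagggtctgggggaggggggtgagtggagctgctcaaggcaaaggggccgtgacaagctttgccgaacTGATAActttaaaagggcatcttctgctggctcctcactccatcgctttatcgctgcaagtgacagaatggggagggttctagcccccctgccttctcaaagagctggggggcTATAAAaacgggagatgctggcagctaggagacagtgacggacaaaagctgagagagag
Pln: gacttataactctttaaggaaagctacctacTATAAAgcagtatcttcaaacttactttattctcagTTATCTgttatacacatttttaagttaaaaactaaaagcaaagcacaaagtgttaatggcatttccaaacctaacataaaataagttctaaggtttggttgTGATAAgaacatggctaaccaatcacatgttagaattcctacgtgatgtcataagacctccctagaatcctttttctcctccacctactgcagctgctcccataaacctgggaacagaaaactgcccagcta

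Of the 7 genes, 6 had a window, and Sln had no entry. A GATA motif stood in 3 of the 6 windows (Myl7, Nppa and Pln), against 5122 of all 27025 windows (19.0%). The CArG box stood in 1 of the 6 (Myl7) and in 4 of 20 windows of sarcomere genes (Actc1, Fhl2, Ldb3 and Myom1), against 425 of 27025 (1.57%). The MEF2 box stood in 0 of the 6 and in 4 of 20 sarcomere windows (Fhl2, Mybpc3, Myoz2 and Ttn), against 882 (3.26%), and TATAAA in 2 of the 6, against 2400 (8.88%). A match is a stretch of letters and was not tested for binding.

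The 7 chosen genes were each higher in cardiac than in other spots of every section, and the rule used their sum. Levels of single genes are CPM of the summed spots, and a ratio is the CPM of cardiac spots over that of other spots. Myl7 stood at 11069.7, 12555 and 8181 CPM in the cardiac spots, a ratio of 7.19, 10.5 and 9.68. The other atrial light chain, Myl4, stood at 7773, 8271 and 5925 CPM. Levels of both light chains were lowest in the V female section, and in a sum over spots fewer cells of a type and less RNA per cell cannot be told apart. Nppa was at 3217, 3464 and 2401 CPM, Sln at 5293, 5818 and 3998 CPM and Pln at 1115, 1062 and 857 CPM. Tnni3, the cardiac inhibitory troponin, had ratios of 7.85, 10.5 and 9.86 and Ryr2 of 7.13, 9.53 and 7.82. Since the spots were chosen on this contrast, no test was made of any difference between cardiac and other spots.

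The sarcomere, the contractile unit of the muscle, was represented by 25 genes outside the rule. They summed to 32929.5, 36232 and 27568 CPM in cardiac spots and to 6254, 4806 and 4149 CPM in other spots. In all 3 sections 24 of the 25 genes were higher in cardiac spots, and Nebl, nebulette, was not, at ratios of 0.96, 0.93 and 1.15. Myh6, the fast cardiac myosin heavy chain of the mouse heart, stood at 6666, 8707 and 5992 CPM. Its levels in other spots, 1055, 968 and 785 CPM, were far below those of the cardiac spots. Cardiac actin, Actc1, was at 4978, 4912 and 3950.3 CPM, and the spring protein titin, Ttn, at 1667, 1538 and 1453 CPM. Lmod2, leiomodin, which lengthens thin filaments, had ratios of 13.2, 22.8 and 11.0, the highest of the list in both NV sections, while Myoz2, a calcineurin-binding protein of the Z-disc, was highest in the V female at 11.2. Cryab, a small heat shock protein, and Pdlim5 had low ratios, of 3.17, 4.35 and 3.37 and of 3.03, 3.20 and 2.98. These 2 genes stood at 383 and 59.4 CPM in the V male section, which had no cardiac spot.

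Calcium handling genes followed the same pattern in 15 of 17 cases. Atp2a2, the pump that returns calcium to the sarcoplasmic reticulum, was at 5704, 6148 and 4756 CPM in cardiac spots, at ratios of 5.04, 7.08 and 6.33. The calcium store protein Casq2 had ratios of 7.95, 11.2 and 10.1 and triadin, Trdn, which ties it to the release channel, 9.01, 12.8 and 9.81. Corin, the membrane protease that cuts the precursor of atrial natriuretic peptide into its active form, was at 121, 106 and 91.5 CPM against 13.0, 11.3 and 9.10 CPM in other spots. The 2 genes that did not follow were Fkbp1b, with 10, 16 and 19 UMIs, and Ppp1r1a, a phosphatase inhibitor, at ratios of 3.47, 0.65 and 0.84.

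Ion channel and junction genes were higher in cardiac spots in all 3 sections for 17 of 22 and lower in all 3 for 3, Gjc1, Cacna1d and Jup. Kcnj3 and Kcnj5, the 2 subunits of the potassium channel by which acetylcholine slows atrial muscle, had ratios of 6.66, 7.88 and 9.10 and of 5.44, 7.19 and 7.37. Chrm2, the muscarinic receptor that opens this channel, was at 128, 113 and 86.1 CPM, with ratios of 9.33, 10.6 and 8.33. Hcn4, the pacemaker channel, was counted 1, 21 and 33 times in the cardiac spots, and 9 of the 21 UMIs of the NV female lay in 1 spot. Its level was therefore near the limit of detection in the NV male, where 3 UMIs correspond to 1.48 CPM.

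**Figure D2:**
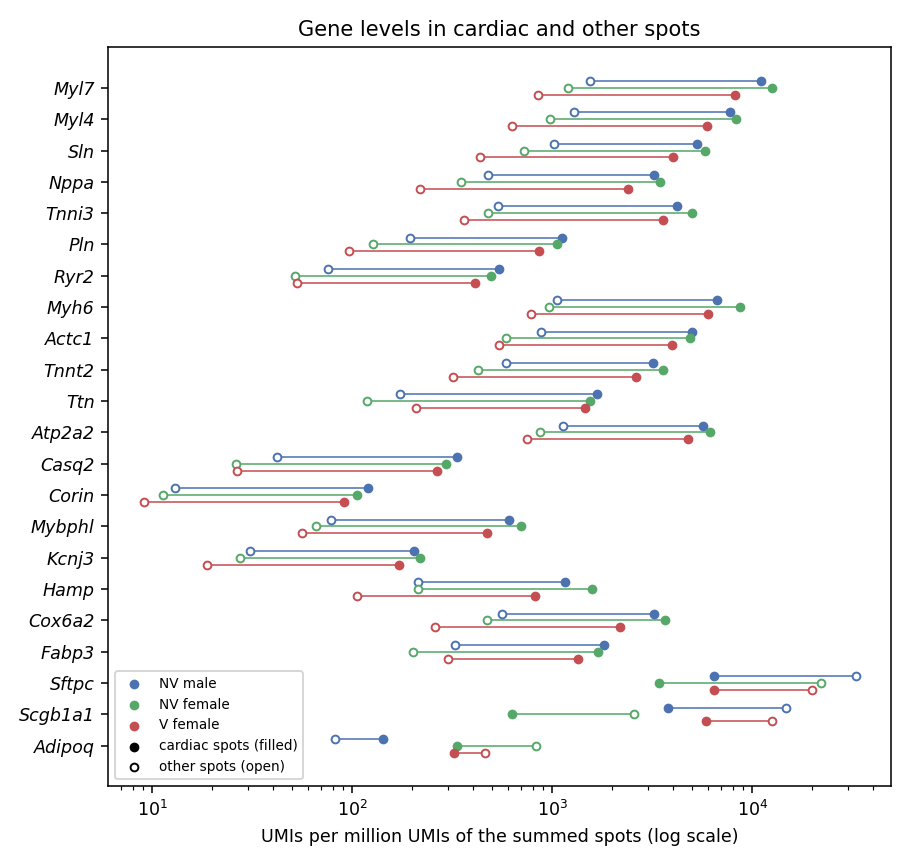
CPM of summed spots (log axis) for 22 genes in cardiac spots (filled) and other spots (open) of the 3 sections with cardiac spots, 1 line per section. Genes of heart muscle lie to the right in cardiac spots of every section, whereas Sftpc and Scgb1a1, of type 2 and club cells, lie to the left, and Adipoq is higher in cardiac spots of the NV male alone (143 against 81.7 CPM).

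The chamber type of the muscle was read from genes that differ between atrium and ventricle. Myl2, the ventricular regulatory light chain, was counted 1, 1 and 3 times in cardiac spots, at or under 3 UMIs in each section, and Irx4, a ventricular transcription factor, was not counted at all. Myl3, a light chain of ventricular and slow skeletal muscle, stood at 111, 114 and 63.2 CPM, a ratio of 6.13, 8.09 and 5.50. Myh7, the slow myosin heavy chain, was at 13.3, 17.7 and 14.5 CPM. Bmp10, which the right atrium of adult mice makes, had 0 UMIs in all cardiac spots, which allows up to 1.48, 1.83 and 0.58 CPM. Other atrial genes were plentiful, with Mybphl at 609, 696 and 472 CPM and Stard10 at 370.2, 483 and 392 CPM. Pam, the enzyme that amidates peptide hormones and a major protein of atrial granules, was at 1771, 1659 and 1487 CPM, 3.25, 4.36 and 3.95 times its level in other spots. Hamp, hepcidin, the iron hormone known mainly from the liver and also made in heart muscle, stood at 1161, 1578 and 821 CPM at ratios of 5.45, 7.40 and 7.77. In all 3 sections 14 of the 18 atrial genes were higher in cardiac spots, but 4 of the 14 (Myl7, Myl4, Sln and Nppa) are rule genes, whose summed level chose the spots. The other 4 of the 18 were Bmp10, Nr2f1, Nr2f2 and Gja5, and Nr2f2, a nuclear receptor of atrial and venous identity, was lower in cardiac spots of each section at ratios of 0.61, 0.64 and 0.74.

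Most skeletal muscle genes were counted rarely. Of 12 such genes, Myh1, Myh2 and Myh4 together had 2 UMIs over all cardiac spots, and Acta1 had 6, 0 and 1. Tnnt3 and Tnni2, fast troponins, were counted 5, 2 and 16 and 7, 2 and 26 times, and Casq1, the calcium store protein of fast muscle, 3, 1 and 37 times. Myl1, a light chain of fast skeletal muscle that embryonic and atrial muscle can also use, was counted most often of the 12, at 270.4, 363 and 456 CPM, with ratios of 5.82, 7.81 and 8.41.

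Transcription factors of the heart were measured at low levels. Tbx20 was at 98.4, 89.7 and 50.7 CPM and Nkx2-5 at 49.9, 30.5 and 22.2 CPM, both lowest in the V female, and Gata4 was at 29.2, 34.8 and 19.9 CPM. Shox2, known from the sinus node and from pulmonary vein muscle, was counted 37, 42 and 67 times (18.3, 25.6 and 13.0 CPM). Tbx3, which represses working-muscle genes in the conduction system and is also used in lung mesenchyme, was lower in cardiac than other spots in every section, at 36.1 against 103, 25.6 against 81.3 and 33.1 against 75.4 CPM.

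All 16 muscle isoforms of energy metabolism were higher in cardiac spots of the 3 sections, among them myoglobin, Mb, at 5005, 4966 and 3799 CPM and the mitochondrial creatine kinase Ckmt2 at 743, 786 and 656 CPM. The 13 genes of the mitochondrial genome took 22.1%, 19.6% and 19.5% of all UMIs of cardiac spots, against 7.85%, 6.68% and 8.70% of other spots, and all 13 were higher in each section. Genes of fatty acid oxidation were less uniform. Their sum was 4599.7, 5369 and 5831 CPM in cardiac and 2599, 3922 and 6105 CPM in other spots, and 19, 16 and 7 of the 20 genes were higher in cardiac spots. The V female thus had the lowest ratio in this list, and brown adipocyte markers in its other spots, given with the interaction, were higher than in both NV sections.

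Among 2107 genes with at least 100 UMIs in the cardiac spots of each section, 90 (4.27%) exceeded a ratio of 5 in all 3 sections, whereas the median ratio of all 2107 was 0.84, 0.84 and 0.87. The 12 genes outside the rule with the highest smallest ratio were Lmod2, Hspb7, Corin, Trdn, Mapk10, Xirp2, Gm31659, Chrm2, Apobec2, Sbk3, Fhl2 and Trim63. Hspb7, a small heat shock protein of heart muscle that binds filamin, stood at 473, 519 and 412 CPM with ratios of 9.47, 12.04 and 11.3. Mapk10, a stress kinase best known from brain and heart, had ratios of 8.72, 8.65 and 8.70. Trim63, the muscle ubiquitin ligase MuRF1 that breaks down sarcomere proteins, was at 75.1, 77.5 and 52.4 CPM, and Xirp2, an actin-binding protein of the cell ends, at 128, 107 and 124 CPM.

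Cardiac spots were not pure muscle. All 7 markers of alveolar type 2 cells were lower than in other spots of each section, their sum being 7334, 4037 and 7331 CPM against 37214, 25440.0 and 22540.3 CPM. All 7 capillary markers and all 5 club cell markers were lower as well, and club markers still reached 4002, 716 and 7239.7 CPM in cardiac spots. Markers of smooth muscle were higher in cardiac spots for 7 of 7 in every section, at 866, 847 and 975 CPM, and 1 of them, desmin, is also a gene of heart muscle. Fibroblast markers were mixed, with 4, 5 and 6 of 7 higher in cardiac spots and 1 lower in all 3 sections. Their sum had ratios of 0.78, 1.01 and 1.21. Dcn, decorin, a matrix protein of connective tissue, was at 1097, 1095 and 1160.2 CPM, with higher ratios than the sum, 3.33, 1.91 and 2.10.

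Adipocyte markers set the sections apart. Their sum was 2249, 5670.0 and 7163 CPM in cardiac and 1204, 14607 and 11846 CPM in other spots. All 7 were thus higher in cardiac spots of the NV male and lower in those of both females. Immunoglobulin transcripts went another way, since the 8 B and plasma cell markers summed to 5262, 928 and 784 CPM in cardiac spots. Of the 6354 Igkc UMIs in the NV male, 2080 (32.7%) lay in 1 spot. A list of 7 neuronal genes gave 93, 603 and 259 UMIs, and 1 spot of the NV female held 295 of its 603 (48.9%), while its level of the 7 atrial genes was 29050.3 CPM.

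Spots richer in the rule genes were also richer in other muscle transcripts and poorer in lung and fat transcripts. Cardiac spots were divided at 24000 and 36000 CPM, which gave 66, 61 and 30 spots for the NV male, 10, 16 and 23 for the NV female and 88, 63 and 13 for the V female. The sarcomere list, outside the rule, went from 21407 to 31410.0 and 38515 CPM across the 3 ranges of the NV male, from 21954 to 32737 and 40986 CPM for the NV female and from 21231 to 31626 and 37061 CPM for the V female. The mitochondrially encoded genes went from 167507 to 240957 CPM between the lowest and the highest range of the NV male, from 145832 to 211890.0 CPM and from 163941 to 228341 CPM for the females. Adipocyte markers went down from 5637 to 1217 CPM, from 13563 to 3544 CPM and from 9189 to 3968 CPM, and red blood cell markers from 14914 to 5084 CPM, from 7381 to 2391 CPM and from 10731 to 3538 CPM. Type 2 markers went down in each section too, least in the NV female, from 4818 to 3705 CPM. The list of collagen and matrix genes was lowest in the highest range, at 5942, 6392 and 6651 CPM. In the NV male the lowest range also had the fewest UMIs per spot, a median of 3267.5 against 29948 in the highest range.

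**Figure D3:**
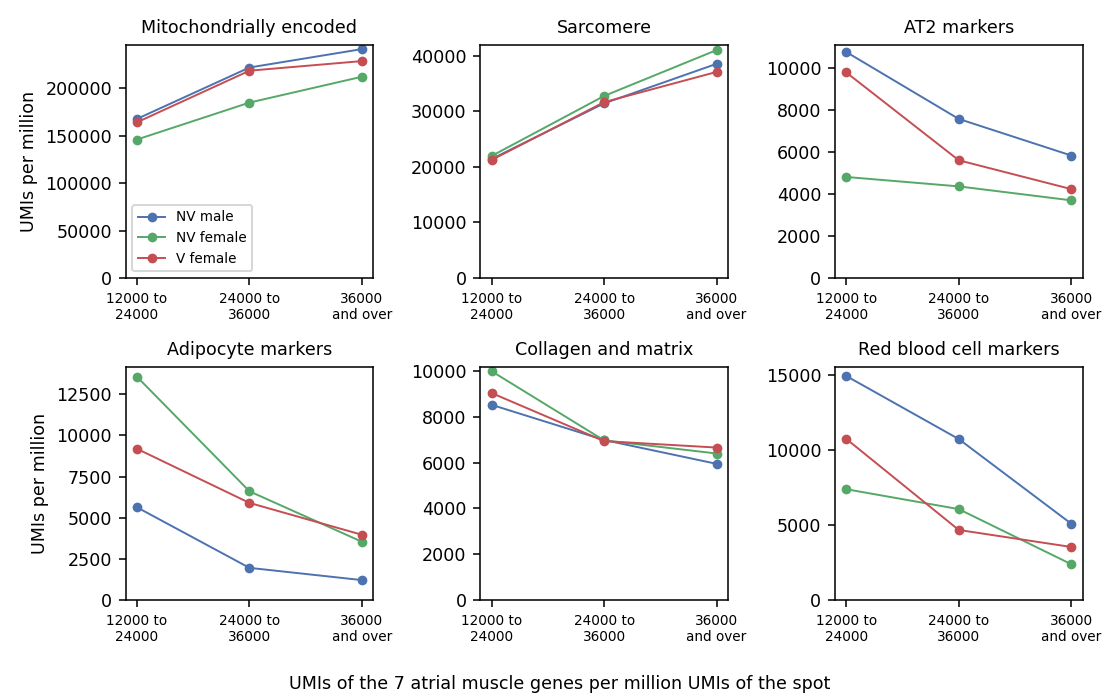
Summed CPM of 6 gene lists in cardiac spots of 3 ranges of the rule level (12000 to 24000, 24000 to 36000, and 36000 and over) in each of the 3 sections, each point being the sum over the spots of that range. Mitochondrially encoded and sarcomere genes go up with the rule level in every section, and type 2, adipocyte, collagen and red blood cell markers go down.

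Within the cardiac spots Nppa was the most uneven gene of those compared, and since Nppa, Myl4, Tnni3, Pln and Sln belong to the rule that chose the spots, their spread is given as a description. Each gene was expressed per 1000 UMIs of the sarcomere list in spots with at least 200 such UMIs, 73, 46 and 155 spots. The level of Nppa ran from 2.75 to 434 (median 68.4) over spots of the NV male, from 3.60 to 404 (median 59.0) for the NV female and from 2.10 to 658 (median 41.9) for the V female. Its coefficient of variation beyond counting error was 106%, 115% and 135%, the highest in every section among the 37 genes with at least 800 UMIs in these spots of each section. Myl4, in contrast, ran from 161 to 312, from 154 to 284 and from 104 to 304, with coefficients of 10.7%, 8.28% and 13.1%. Tnni3 was as even as Myl4, at 10.7%, 7.96% and 13.1%. Ordered by the lowest of the 3 sections, Hamp followed Nppa with 47.1%, 88.7% and 57.5%, then Clu, clusterin, a secreted chaperone, with 38.1%, 44.5% and 41.9%, Ankrd1, a stretch-responsive protein of the sarcomere, with 39.9%, 29.8% and 42.4%, and Pln with 33.8%, 30.0% and 28.6%. Neighbours in this order, such as Clu and Ankrd1, changed places between sections. Dkk3 and Myl1 had fewer UMIs than this minimum in some section and were not ordered.

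**Figure D4:**
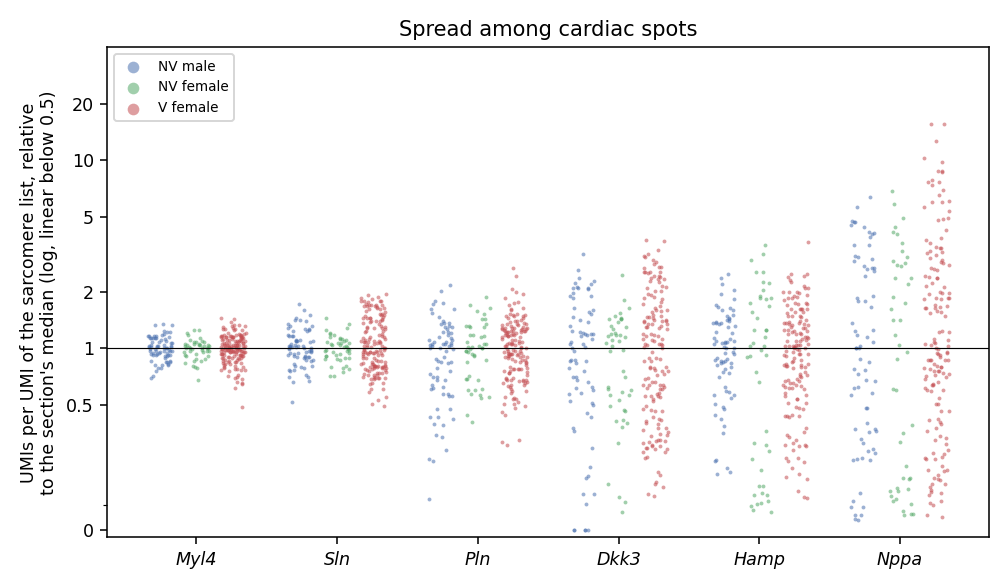
UMIs per UMI of the sarcomere list in single cardiac spots, divided by the median of the section (log axis, linear below 0.5), for 6 genes in each of the 3 sections. Myl4 stays close to its median, whereas Nppa spreads far above and below its median, as its range from 2.10 to 658 per 1000 sarcomere UMIs in the V female shows.

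Other genes varied along with Nppa across spots. Dkk3, a secreted protein named for its likeness to inhibitors of Wnt signalling, had a Spearman correlation with Nppa of 0.63 over 73 spots of the NV male, 0.72 over 46 spots of the NV female and 0.55 over 155 spots of the V female. For Hamp it was 0.36, 0.65 and 0.48, for Sln -0.36, -0.36 and -0.11, and for the UMIs of the spot -0.10, -0.06 and -0.11. Nppa per sarcomere UMI and the CPM of the sarcomere list itself had correlations of -0.43, -0.18 and -0.17. These are descriptions over spots that share a section, a library and the sarcomere UMIs as divisor. Spots were also sorted by Nppa per sarcomere UMI, and the highest 25% were set against the lowest, 19, 12 and 39 spots each. Of 1012 genes, Tagln, an actin-binding protein of smooth muscle, was at 3.34, 4.52 and 3.85 times its level in the lowest spots, Dkk3 at 3.04, 3.28 and 3.02 times, Clu at 1.91, 2.72 and 2.05 times and Vwf, of large vessels and endocardium, at 1.78, 2.32 and 2.17 times. Ccn2, a matrix protein induced by stretch, was at 1.67, 2.92 and 2.16 times. Myl1 went the other way at 0.70, 0.38 and 0.39 times, and so did Pln at 0.55, 0.61 and 0.78 times and mt-Co1, a subunit of cytochrome oxidase, at 0.64, 0.78 and 0.74 times. All these genes kept 1 direction in the 3 sections, which is how they were selected. Desmin, Des, also a smooth muscle marker, did not, at 1.38, 1.10 and 0.75 times. Levels in this contrast are per sarcomere UMI too, and the typical ratio over the 1012 genes is not given here. Whether the Nppa-rich spots lie at a particular place of the tissue was not analysed here.

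The study asked what vaping changes in lung tissue, and for cardiac muscle the design allowed the sum of the V female to be set against the sums of the NV male and NV female. With 1 V section the test had 1 residual degree of freedom, the V section was assumed to vary like the NV sections, and exposure cannot be told apart from anything else particular to that mouse or section. The V mouse was female and the NV mice of both sexes, so sex is only partly balanced. An exact permutation test of 1 section against 2 cannot give a one-sided p below 0.333. The p-values therefore come from edgeR's quasi-likelihood test, in which the spread of each gene was taken wholly from the trend over all genes (common coefficient of variation 0.16).

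No gene of the contractile, calcium, channel, energy or fatty acid oxidation lists passed the test between V and NV in cardiac spots. Of 11839 genes tested, 191 passed (1.61%), with an adjusted p (Benjamini-Hochberg) below 0.05 and a log2 difference larger than 0.25, and are termed called, 122 higher (1.03%) and 69 lower (0.583%) in the V female. Called genes numbered 0 of 25 in the sarcomere list, 0 of 17 in calcium handling, 0 of 22 in ion channels and junctions, 0 of 16 in energy isoforms, 0 of 19 tested in fatty acid oxidation and 0 of 17 tested in the atrial list. At an unadjusted p under 0.05 they held 6, 3, 3, 1, 1 and 4 genes, against 814 of all 11839, and DESeq2 and limma called 0 genes of the sarcomere, calcium and fatty acid oxidation lists. At a background of 1.61% a count of 0 in lists of this size is not a result about their genes. The atrial list includes the rule genes Myl7, Myl4, Sln and Nppa, and the natriuretic list given below includes Nppa. The median log2 fold change was -0.43 for the sarcomere list (lowest -0.80, highest 0.18) and -0.27 for calcium handling, with 1 value above 0 in each list, against -0.01 over all genes. It was 0.11 for fatty acid oxidation, where 14 of 19 values were above 0. For the 7 rule genes, whose level decided which spots entered, the median was -0.51, with a range from -0.60 for Myl7 to -0.40 for Ryr2. Myh6 had a log2 fold change of -0.43 ± 0.30 (SE) with an edgeR adjusted p of 0.97. Nppa, a rule gene, had one of -0.55 ± 0.30, given as a description only.

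These medians moved with the spots that were taken. With spots of at least 24000 CPM the sarcomere median was -0.19, with those of at least 6000 it was -0.04, and with sums scaled to the sarcomere list itself the rule genes were at -0.11 and all genes at 0.39. With cardiac spots poor in brown adipocyte markers, 150, 47 and 33 spots, the sarcomere median was -0.12. The lists of natriuretic and stretch response, 12 genes tested, oxidative stress, 21 genes, mitochondrial apoptosis, 20 genes, and collagen and matrix, 20 genes, had 0 calls by edgeR as well, with 2, 0, 2 and 0 genes at an unadjusted p under 0.05 and medians of -0.27, 0.04, -0.02 and 0.10. Nppb, brain natriuretic peptide, was counted 21, 4 and 18 times and had a log2 fold change of -0.99 ± 0.78 (edgeR adjusted p = 0.999).

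**Figure D5:**
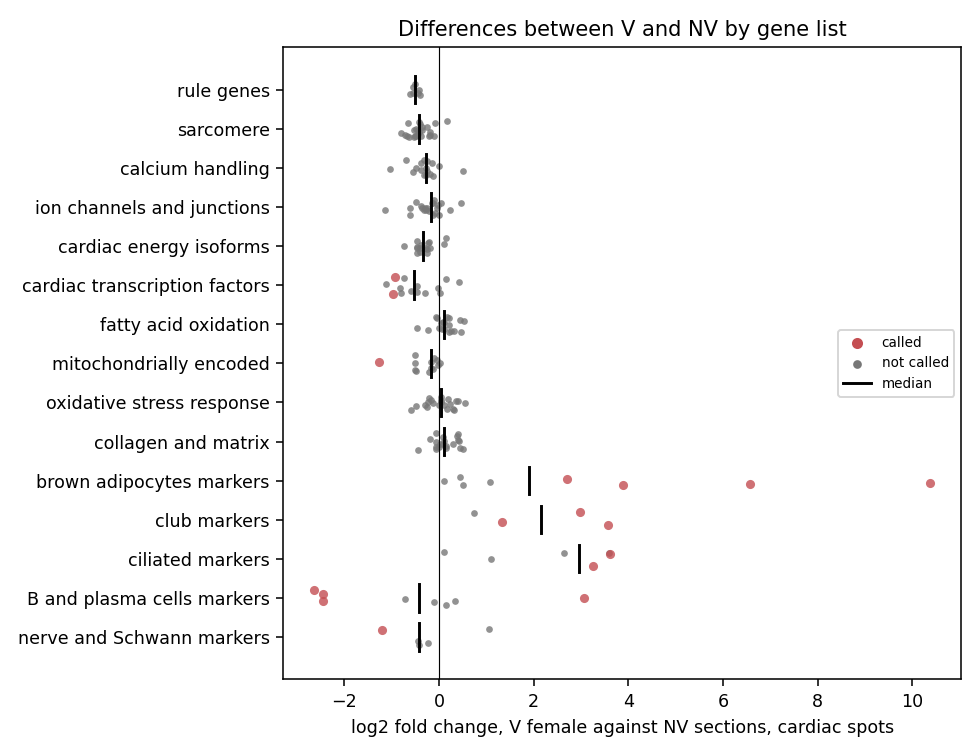
Log2 fold change of the V female against the NV sections in sums over cardiac spots for each tested gene of 15 lists, with called genes in red, others in grey and the list median as a bar. Sarcomere genes lie between -0.80 and 0.18 with 0 calls, whereas brown adipocyte markers reach 10.4 with 4 calls of 8.

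In the heart muscle lists 3 nuclear genes were called, all lower in the V female. Tbx20, a T-box factor of cardiomyocytes, stood at 98.4 and 89.7 CPM in the NV sections and at 50.7 CPM in the V female, a log2 fold change of -0.96 ± 0.25 (SE, edgeR adjusted p = 0.0086). Nkx2-5, a master factor of heart development, stood at 49.9 and 30.5 CPM and at 22.2 CPM, -0.94 ± 0.28 with an adjusted p of 0.046, and -0.53 without the NV male. Myl3 was at 111 and 114 CPM and at 63.2 CPM, -0.90 ± 0.25 with an adjusted p of 0.023. In each case the V section lay below both NV sections. They made 2 of 14 tested genes in the transcription factor list and 1 of 4 in the ventricular list, against 0.583% lower calls overall. The medians of these 2 lists were -0.53 and -0.15, against -0.43 for the sarcomere list. Whether other muscle genes shared part of these differences was not tested. None of these 3 genes was called by DESeq2 or limma. Of the mitochondrially encoded genes mt-Nd6, the only one read from the light strand, was at 36.6 and 31.1 CPM and at 14.7 CPM in the V female (-1.28 ± 0.30, adjusted p = 0.0022), and the other 12 were not called, with a list median of -0.18.

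Some genes of acute signalling and of the glucocorticoid response were called lower. Errfi1, a feedback inhibitor of the EGF receptor, was at 97.9 and 128 CPM in the NV sections and 36.9 CPM in the V female, a log2 fold change of -1.68 ± 0.26 (edgeR adjusted p = 3.5e-08), and was the 1 lower gene also called by DESeq2 and limma. Nr4a1, an immediate-early nuclear receptor, was at 213, 90.3 and 19.9 CPM (-3.004 ± 0.29) and Apold1, an early response gene of endothelium, at 18.8, 20.1 and 2.90 CPM (-2.80 ± 0.49). Tsc22d3, a target of glucocorticoids, was at 153, 203 and 86.7 CPM (-1.10 ± 0.26, adjusted p = 0.0029). For each of these 4 genes the V section lay below both NV sections, and all 4 were also lower in its other spots, Errfi1 at 61.0 CPM against 168 and 259 CPM. In the V male section as a whole Errfi1 stood at 304 CPM and Tsc22d3 at 844 CPM, above all sums of the other sections. That section had no cardiac spots, so its sum covers other tissue and is not a like comparison. Errfi1 and Tsc22d3 were the 2 called of 14 tested genes in the glucocorticoid and clock list, against 0.583% lower calls over all genes, and the list median was 0.15.

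Differences in transcripts of cells other than heart muscle were large, as were those of the Y-linked genes given further on. Ucp1, the uncoupling protein of brown fat, was counted 0 and 1 times in cardiac spots of the NV sections and 2281 times in those of the V female (441 CPM), a ratio of 1616 with an exact 95% counting interval of 289.7 to 63846. Cidea, a lipid droplet protein of brown fat, was at 15.3 and 24.4 CPM in the NV sections and at 306 CPM in the V female, 3.89 ± 0.27 (SE) on the log2 scale (edgeR adjusted p = 4.2e-44). Elovl3, a fatty acid elongase, had 0, 1 and 163 UMIs and Otop1, a proton channel, 5, 3 and 79. These 4 of 8 brown adipocyte markers were called higher, against 1.03% of all genes, and the V section lay above both NV sections for each. The 8 markers summed to 1299.9 and 1616 CPM in the NV sections and 2453 CPM in the V female. Ucp1 and Elovl3 were at 0 in the NV male. Ucp1, Elovl3 and Otop1 entered the test through the V female alone, so their calls are no separate support for these counts. Cox8b, which heart muscle also uses, made up most of this sum in each of the 3 sections, at 1215 CPM in the NV male. The same genes were high in the other spots of the V female, with Ucp1 at 934 CPM against 0.14 and 1.13 CPM in the NV sections. Their part in the other differences was not tested. With cardiac spots limited to those under 500 CPM of these markers, Cox8b not counted, 70 genes were called. This setting kept 150, 47 and 33 cardiac spots of 157, 49 and 164, so most of the loss fell on the V female. Fewer brown fat transcripts and fewer spots cannot be told apart in it.

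Airway transcripts were higher too. Scgb3a1, a secretoglobin of the large airways, was at 23.7 and 20.7 CPM and at 769 CPM in the V female (5.03 ± 0.29), and Bpifb1, a secreted airway protein, at 3.46, 3.66 and 162 CPM (5.43 ± 0.32). Of the club markers 3 of 4 tested were called higher, against 1.03% of all genes, Scgb3a2, Cyp2f2 and Scgb1a1, and their list summed to 4002 and 716 CPM in the NV sections and 7239.7 CPM in the V female, with no marker at 0. Scgb1a1 itself was at 3778, 627 and 5846 CPM, so the NV male lay nearer to the V female than to the NV female, and its log2 fold change of 1.34 became 0.56 without the NV female. Of the ciliated markers Ccdc153 and Foxj1, 2 of 6 tested, were called higher against the same 1.03%, with sums of 165 and 246 CPM and of 277 CPM, and Rsph1 was at 0 in the NV female. Wif1, a secreted Wnt inhibitor, and Snorc, a proteoglycan of cartilage, had 0 UMIs in both NV sections and 99 and 83 in the V female, at least 23.4-fold and 19.6-fold higher with a floor of 3 UMIs over the NV spots. Dnah5, a motor protein of cilia, had 0 and 55 UMIs, at least 13.0-fold higher, and Chad, a cartilage matrix protein, 2 and 108, a ratio of 38.3 with a counting interval of 10.3 to 319.9. Foxj1 had 3 UMIs over the cardiac spots of both NV sections and 57 in the V female. Wif1, Snorc, Dnah5, Chad, Bpifb1 and Foxj1 entered the test through the V female alone, so their calls are no separate support for these counts. The other spots of the V female also held more of these transcripts, with Scgb3a1 at 1421 CPM against 7.61 and 80.5 CPM and Snorc at 19.7 CPM against 0 and 0.19 CPM. Their part in the other results was not tested.

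Single further markers of neighbouring cells were called higher with smaller differences, against 1.03% higher calls over all genes. In their lists 3 of 6 mesothelium, 6 of 7 smooth muscle and 4 of 7 macrophage markers had a log2 fold change above 0. Msln and Krt19, surface and keratin genes of the mesothelium, were at 53.4, 50.03 and 116 CPM and at 44.0, 36.6 and 93.6 CPM in cardiac spots, 2 of 6 tested in that list. Cnn1, calponin, of smooth muscle, was at 16.3, 6.71 and 28.6 CPM (1.1999 ± 0.33, and 0.74 without the NV female), 1 of 7, and Chil3, a chitinase-like protein of macrophages, at 36.1, 47.0 and 127 CPM (1.55 ± 0.24), 1 of 7. Each was also highest in the other spots of the V female, Chil3 at 341 CPM against 161 and 275 CPM.

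The 8 genes called higher by edgeR, DESeq2 and limma alike were Ucp1, Bpifb1, Scgb3a1, Igha, Lypd2, Gpd1, Cidea and Gsto1. Among them, Ucp1 and Bpifb1 entered the tests through the V female alone. Igha, the heavy chain of IgA, was at 18.3, 14.0 and 144 CPM (3.07 ± 0.26), whereas Igkc was at 3141, 240.4 and 325 CPM and Ighm at 1542, 533 and 175 CPM, both called lower. The 8 B and plasma cell markers had 1 higher and 3 lower calls (Jchain, Igkc and Ighm), against 1.03% higher and 0.583% lower over all genes, and none was at 0 in a cardiac sum. Without the NV male the fold change of Igkc turned to 0.36, so that its direction rested on this section, while Jchain went from -2.46 to -0.42 and Ighm from -2.64 to -1.68. Iglc2 was at 40.5, 392 and 22.2 CPM (-3.34 ± 0.31) and rested mostly on the NV female, with -0.93 without it.

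The other lower calls named here were 3 Y-linked genes, Sult1e1 and Kif5a, and not all of the 69 lower calls are named. Ddx3y, Eif2s3y and Kdm5d are on the Y chromosome and had 105, 98 and 31 UMIs in cardiac spots of the NV male, 0, 0 and 1 in those of the NV female and 0 in those of the V female. Sult1e1, oestrogen sulfotransferase, had 45 UMIs in the NV male and 0 in both females, so that its fold change cannot be told apart from a difference between the sexes. Kif5a, a neuronal motor protein, had 8, 30 and 5 UMIs, of which 11 in the NV female lay in 1 spot, and its log2 fold change of -3.49 became -2.06 without the NV female. The nerve and Schwann cell markers summed to 75.6, 95.8 and 65.4 CPM, and Th was at 0 in the NV male.

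Of all called genes, 122 of 122 higher and 55 of 69 lower kept a log2 difference over 0.25 in the same direction when either NV section was left out. DESeq2 called 18 genes and limma on mean CPM 17, and edgeR called 0 genes, with 452 at an unadjusted p under 0.05, when the sums were thinned to the smallest total.

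The question whether V and NV differed in cardiac spots beyond what the other spots of the same sections show was tested as an interaction, with the section as a block. A positive value means that the ratio of cardiac to other spots was higher in the V female. Of 14522 genes, 133 were called (0.916%), 5 higher (0.0344%) and 128 lower (0.881%). None of the sarcomere, calcium, channel, atrial or transcription factor genes was called, with 2, 1, 1, 0 and 1 genes at an unadjusted p under 0.05 and medians of -0.10, -0.18, 0.0011, -0.03 and -0.12. The sarcomere median changed sign with the spots taken. It was 0.34 at a threshold of 6000 CPM and 0.24 with cardiac spots poor in brown adipocyte markers. Against other spots under 3000 CPM, 16, 103 and 1511 spots, it was -0.33. Of the other spots 97.6%, 74.9% and 19.5% held at least 3000 CPM of the rule genes. The 7 rule genes were left out of the interaction calls, but Myl7, Myl4, Sln and Nppa remain in the median and unadjusted count of the atrial list.

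Most called members of the gene lists belonged to lipid metabolism of mitochondria. Of 20 fatty acid oxidation genes, 12 were called lower and 0 higher, against 0.881% of all genes, with a list median of -1.22. DESeq2 called none of the 12, and with total UMIs as the scaling edgeR called 4. Hadhb, a subunit of the trifunctional protein, had ratios of cardiac to other spots of 2.66 and 2.20 in the NV sections and 0.96 in the V female (-1.52 ± 0.26, edgeR adjusted p = 0.0023). Cpt1b, the muscle isoform that brings fatty acids into mitochondria, had ratios of 6.53 and 8.70 and of 1.92 (-2.15 ± 0.25, adjusted p = 1.7e-05). Cox8b had ratios of 7.49 and 4.26 and of 1.21 (-2.40 ± 0.29) and Cox7a1 of 7.73 and 9.80 and of 2.40 (-2.05 ± 0.27), both being oxidase subunits of muscle and brown fat. For each of these genes the V section had the lowest ratio. In the cardiac spots alone neither Cpt1b nor Cox7a1 passed the test, with Cpt1b at 108, 129 and 137 CPM and Cox7a1 at 1705, 2047 and 1650.1 CPM, whereas in the other spots of the V female Cpt1b was at 71.5 CPM against 16.6 and 14.9 CPM and Cox7a1 at 688 CPM against 220.4 and 209 CPM. Brown adipocyte markers in those other spots summed to 3097 CPM, against 246 and 624 CPM in the NV sections, and their part in the result was not tested. The mitochondrially encoded list had 1 lower call of 13, mt-Atp8 (-1.06 ± 0.27, adjusted p = 0.046), and a median of -0.62, all 13 values being negative.

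Other genes with large lower values mostly had few UMIs. Cartpt, a neuropeptide, had 1, 84 and 21 UMIs in cardiac spots (-3.62 ± 0.70, but -0.23 without the NV female), and 44 of the 84 lay in the spot of the NV female rich in neuronal transcripts. Myoc, myocilin, had 4, 11 and 127 UMIs and S100b, a calcium-binding protein of Schwann cells, 8, 11 and 59, while in other spots Myoc stood at 0.68, 0.38 and 33.5 CPM. The value of Myoc was -3.45, and -2.17 without the NV female. Ltf, lactoferrin, was at 64.7, 3.66 and 37.5 CPM in cardiac and 13.5, 3.01 and 50.1 CPM in other spots, so that its ratio was 4.81, 1.22 and 0.75 and its value of -2.58 became -0.87 without the NV male. Without the neuron-rich spot the interaction called 17 genes, and the fatty acid oxidation list had 4 lower calls.

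The 5 higher genes were Tmem30b, Ms4a1, Igha, Cldn3 and Thbs1. Tmem30b, a subunit of lipid flippases, had 4, 3 and 54 UMIs in cardiac spots and 18.3, 13.9 and 13.5 CPM in other spots (2.53 ± 0.57, edgeR adjusted p = 0.021). Cldn3, an epithelial claudin, was at 22.7, 14.6 and 40.8 CPM in cardiac and 116, 78.5 and 81.3 CPM in other spots. Thbs1, thrombospondin, was at 42.0, 31.1 and 30.8 CPM in cardiac spots, where the V female lay just below the NV female, whereas other spots held 165, 176 and 58.0 CPM. Ms4a1, the B cell marker CD20, was at 16.8, 15.9 and 21.9 CPM in cardiac and 57.5, 61.0 and 29.7 CPM in other spots. DESeq2 called 4 genes in the interaction, Cycs, Cox7a1, Cox8b and Cpt1b, all lower.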

How the data were processed

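The authors processed the reads of 4 Visium sections in SpaceRanger against an mm10 (GRCm38) mouse reference from 10x, and the deposited tables hold UMI counts per gene (32285 genes) and tissue spot, without normalization; Seurat 4.0.3 is named in the submitters' processing notes. The members and gene lists were chosen with earlier results of these data known. Counts were summed over cardiac and other spots of each section. CPM are counts per 1000000 UMIs of the sum, without further scaling. The test of V against NV was edgeR's quasi-likelihood test (edgeR 4.0.16 under R 4.3.3, TMM scaling, filterByExpr), which in the interaction had a prior of 30.5 degrees of freedom. The filter required enough UMIs in only 1 sum, so a gene could enter through the V female alone. SE is the fold change over the square root of F. Named genes were members of the fixed lists, the 12 of highest ratio, and the 8 of largest fold change each way among called genes or, where fewer were called, of smallest p. Genes called by all tools and genes that varied with Nppa among spots were chosen after their values were seen. Alternatives were DESeq2 1.42.0, limma 3.58.1 (log2 of mean CPM with a pseudocount of 1), other scalings, filters, thresholds, thinned sums and sections left out. On simulated data edgeR recovered 82% of 200 genes changed by a log2 fold of 2, with 3 false calls among 11459 genes in the cardiac test. In the interaction it recovered 78% with 4 false calls among 14098. DESeq2 recovered 50.5% and 37%. The simulated sums had the same spread for all genes and differed only in their totals and the changed genes. Their false calls therefore do not measure the error in the real sums, where sections and spot classes also differ. Chromosomes were taken from GENCODE vM21. Spot coordinates were not used here. Levels were not compared between genes. The 2 NV samples are separate mice of different sex. Some list members are not reported here.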

Additional observations from a re-analysis of the deposited data

Results flagged for a closer look

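The interaction of spot class and group differed for 133 genes by edgeR's quasi-likelihood test, and the named genes among them were looked at again because the V against NV effect in cardiac spots differed from that in other spots of the same sections. The higher values on the log2 scale were 2.53 for Tmem30b, 1.22 for Ms4a1, 1.199 for Igha, 1.19 for Cldn3 and 1.11 for Thbs1. The lowest were -3.62 for Cartpt, -3.45 for Myoc, -3.23 for S100b, -2.58 for Ltf and -2.06 for Reg3g, an antimicrobial lectin. Without the NV female Cartpt stood at -0.23 and Myoc at -2.17, and without the NV male Ltf and Reg3g both stood at -0.87. Among muscle and brown fat isoforms of energy metabolism the values were -2.40 for Cox8b, -2.15 for Cpt1b and -2.05 for Cox7a1. In the fatty acid oxidation list they were -1.72 for Pdk4, -1.52 for Hadhb and for Acadvl, -1.46 for Etfdh, -1.45 for Acadl, -1.34 for Etfb, -1.28 for Eci1, -1.25 for Acadm, -1.12 for Etfa, -1.10 for Cpt2 and for Hadha, and -1.08 for Acaa2, of which Eci1, Acadm and Cpt2 were at -0.82, -0.81 and -0.61 without the NV male. Single members of other lists were Cycs, cytochrome c, at -1.82, Cytl1 at -1.33, mt-Atp8 at -1.06 and Sod2, the mitochondrial superoxide dismutase, at -1.02. Next in order without passing the threshold were Wfdc2, Cxcl13 and Muc1 (edgeR adjusted p = 0.055, 0.067 and 0.078).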

How the results depend on the processing

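In cardiac spots the 191 calls became 18 with DESeq2 (14 higher, 4 lower), 17 with limma, 96 at a threshold of 6000 CPM, 70 with spots poor in brown adipocyte markers and 0 with thinned sums. The estimated prior degrees of freedom were 3.02 with thinned sums and infinite as reported. Scaling to the sarcomere list gave 281 calls, of which 94.3% were higher, against 63.9% as reported. The interaction's 133 calls became 4 with DESeq2, 19 with total UMIs alone, 5 at a threshold of 6000, 3 with thinned sums, 38 with spots poor in brown adipocyte markers, 17 without the neuron-rich spot and 31 (16 higher) against other spots under 3000 CPM. Cardiac spots poor in brown adipocyte markers numbered 150, 47 and 33, and other spots under 3000 CPM 16, 103 and 1511. The share of cardiac spots, 7.58%, became 13.3% at 6000 and 4.22% at 24000 CPM, and the 90 genes of ratio over 5 became 29 at 6000 and 49 with a mean of per-spot CPM. The other 18 of 34 alternatives of these counts stayed within 1.5 times. Igkc reversed to 0.36 without NV replicate 1 (-3.34 without NV replicate 2) and Igha in the interaction to -0.011 at 6000. For single genes, 627 values kept their call and direction and 315 lost the call. The cause was not tested. No paired analysis was possible because the sections with cardiac spots share fewer than 2 replicate numbers. Brown adipocyte markers with Cox8b under 500 CPM left no V female spot, and a threshold of 48000 left 1, 3 and 3 spots, so neither was run; leaving out an NV section left no residual degrees of freedom. The neuron-rich spot and the version without Cox8b were chosen after seeing the data. A count of 0 in a sum allows up to 3 UMIs.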
